A study of Mus musculus with 3 samples.

Results

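The nuclear genes of respiratory complexes II, III, IV and V were examined for CUT&Tag peaks of MYC and of Flag-tagged POH1. They were taken from the RefSeq annotation of GRCm38.p6 by symbol, as protein-coding genes starting Sdh, Uqcr, Cox with a digit or Atp5, together with Cyc1, Cycs, Surf1, Sco1 and Sco2. The rule gave 65 genes of the 21887 that code for protein on the autosomes, X and Y. Of these, 8 belong to complex II, 9 to complex III, 30 to complex IV and 17 to complex V, with Cycs as the carrier between complexes III and IV. The choice rests on names and used no measured value, although it was made with earlier results of these data known.

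The cells were Pan02, a mouse pancreatic cancer line, and CUT&Tag uses an antibody to bring a DNA-cutting transposase to the protein of interest. Of the 3 libraries, 1 was made with anti-Flag antibody in cells that stably express POH1-Flag, 1 with anti-MYC antibody in the same POH1-Flag cells, and 1 with anti-MYC antibody in cells with vector. POH1, the product of Psmd14, is a deubiquitinase of the proteasome lid. The series title asks how POH1 regulates MYC, and the comparison of the MYC libraries addresses where MYC lay with and without the added POH1-Flag. The sources used here do not give the promoter of the transgene, its level, or whether each line is a clone or a pool. With 1 library per group, there was no spread between replicates to judge a difference by, and intervals cover counting error only. In a bulk library, more cells bound and more binding per cell cannot be told apart.

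Complex II (succinate dehydrogenase) takes electrons from succinate to ubiquinone, complex III passes them to cytochrome c, and complex IV (cytochrome c oxidase) passes them to oxygen. Complex V is the ATP synthase, which uses the proton gradient that complexes III and IV help to build. Complex II is encoded in the nucleus alone, whereas the other complexes also hold subunits of mitochondrial origin, and complex IV needs many factors that insert heme and copper. MYC is a transcription factor that binds DNA with MAX at E-boxes, and nuclear genes of mitochondrial proteins are among its known targets.

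A gene was counted when the summit of a peak lay within 1 kb of either end of the gene. With the vector library set to 1, the background per base implied a depth of 1.06 for the other MYC library and 1.05 for the Flag library. Ratios of reads below were not scaled by this depth. The lists held 2936 peaks for Flag, 22647 for MYC in POH1-Flag cells and 12175 for MYC in vector cells. Read pileups at the summits, called reads below, were worked back from the fold and −log10 p that the authors deposited for each peak. A site at the genome-wide background needed 7 reads for Flag, 5 for MYC in POH1-Flag cells and 6 for MYC in vector cells to reach the weakest peak of its list, so a gene without a peak may still carry a few reads. Of marker genes, 3 of 10 ductal genes had a MYC peak in POH1-Flag cells (Krt7, Muc1 and Sox9), as did 0 of 10 acinar, 1 of 6 fibroblast (Pdgfrb) and 1 of 5 macrophage genes (Cd68). In vector cells Muc1 and Sox9 alone of these had a peak, although a peak is no measure of expression. Of all protein-coding genes, 40.0% had a gene-end MYC peak in POH1-Flag cells and 28.2% in vector cells. No marker list, the ductal one included, had a share above these, and the lists are small.

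Promoter sequence was available for 51 of the 65 genes, in the RefSeq promoter table for GRCm38.p6, from 250 bases before to 50 bases after an annotated start. The canonical E-box CACGTG, which reads the same on both strands, was found in 5 of the 51 (9.8%) and in 8.91% of the 17492 genes with such a sequence. All 5 of these genes, Atp5g1, Atp5g3, Atp5l, Atp5pb and Sco2, had a MYC peak in POH1-Flag cells within 1 kb of a gene end or an annotated start, as did 44 of the 51 genes with a promoter sequence. Over all genes the share with such a peak was 63.4% with the E-box and 43.3% without it. The stretches upstream of the start at the 4 genes of complex V are shown because the letters most associated with MYC lie in them and inside the MYC peak. Capitals mark the E-box, and each sequence runs 5′ to 3′ along the gene.
Atp5g1 (chr11:96075632-96075721, minus strand): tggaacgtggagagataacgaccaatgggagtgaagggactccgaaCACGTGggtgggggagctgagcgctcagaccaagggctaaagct
Atp5l (chr9:44920843-44920932, minus strand): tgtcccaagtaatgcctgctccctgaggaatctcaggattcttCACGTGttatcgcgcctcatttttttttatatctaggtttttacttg
Atp5pb (chr3:105959424-105959513, minus strand): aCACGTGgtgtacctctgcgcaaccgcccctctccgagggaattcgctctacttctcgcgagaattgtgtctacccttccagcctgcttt
Atp5g3 (chr2:73911487-73911576, minus strand): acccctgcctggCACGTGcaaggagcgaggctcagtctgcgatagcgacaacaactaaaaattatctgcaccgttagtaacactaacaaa

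The summit of MYC in POH1-Flag cells lay 5 bp from the E-box at Atp5pb, 118 bp at Atp5l, 217 bp at Atp5g1 and 697 bp at Atp5g3. At Sco2 the E-box lay 25 bp after the start and 131 bp from the summit. Distances in vector cells were 56 bp at Atp5pb, 241 bp at Atp5l, 128 bp at Atp5g1 and 127 bp at Sco2, and Atp5g3 had no peak there.

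The E-box variant CACGCG, which reads CGCGTG on the other strand, was found in 8 of the 51 promoters (15.7%) and in 13.7% of all. Both complex II genes given here hold it upstream of the start, and they differ in the libraries: Sdha had a MYC peak in both cell lines and Sdhd in POH1-Flag cells only. Capitals mark the variant.
Sdha (chr13:74350271-74350360, minus strand): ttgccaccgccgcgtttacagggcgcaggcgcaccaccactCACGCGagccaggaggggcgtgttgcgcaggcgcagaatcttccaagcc
Sdhd (chr9:50603880-50603969, minus strand): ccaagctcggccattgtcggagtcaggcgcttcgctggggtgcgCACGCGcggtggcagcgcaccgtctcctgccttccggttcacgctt

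Letters bound by factors known for respiratory genes were also searched on both strands. The NRF1 motif searched was the palindrome of 10 letters that stands in capitals in the sequences of Atp5g2, Cox6a1 and Atp5k, and it stood in 4 of the 51 promoters (7.84%) and in 1.47% of all, and the ETS letters CCGGAAGT (ACTTCCGG on the other strand) in 8 (15.7%) and in 5.69% of all. The YY1 letters AAGATGGC (GCCATCTT) stood in 5 (9.8%) and in 3.57% of all, and the further variant CATGTG, on the other strand read as CACATG, in 3 (5.88%) and in 13.2%. No match of 1 motif overlapped a match of another in the members' promoters. The 3 NRF1 matches upstream of a start are shown because the genes differ in MYC signal: Atp5g2 had a strong MYC peak, Cox6a1 a weak one, and Atp5k no peak in any library. Capitals mark the NRF1 letters.
Atp5g2 (chr15:102671048-102671137, minus strand): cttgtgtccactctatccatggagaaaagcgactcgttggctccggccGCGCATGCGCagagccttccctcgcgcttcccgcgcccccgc
Cox6a1 (chr5:115349069-115349158, minus strand): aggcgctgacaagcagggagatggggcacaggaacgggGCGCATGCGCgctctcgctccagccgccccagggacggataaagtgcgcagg
Atp5k (chr5:108434400-108434489, minus strand): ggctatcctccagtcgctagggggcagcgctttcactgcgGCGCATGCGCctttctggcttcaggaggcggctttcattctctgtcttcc

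MYC peaks lay near a gene end at 51 of the 65 genes in POH1-Flag cells (78.5%, Wilson 95% interval 67.0 to 86.7%) and at 33 in vector cells (50.8%, 38.9 to 62.5%). Over all protein-coding genes the shares were 40.0% and 28.2%. All 33 genes with a vector peak had one in POH1-Flag cells as well, 18 had a peak in POH1-Flag cells only, and 0 had a peak in vector cells only, which 0.562% of all genes and 1.99% of all genes with a vector peak did. Of the 32 members lacking a vector peak, 56.2% had one in POH1-Flag cells, and over all genes lacking one the share was 17.2%. The median −log10 q of the members' peaks was 9.34 over the 51 genes in POH1-Flag cells and 6.53 over the 33 in vector cells. These gene sets differ, each q belongs to its own list, and no median over all genes is given beside them. At a −log10 q of at least 10, 20 genes remained in POH1-Flag cells (30.8%, against 20.1% of all genes) and 5 in vector cells (7.69%, against 6.91% of all genes). The 5 were Uqcrq, Cycs, Cox18, Cox20 and Atp5g1.

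**Figure D1:**
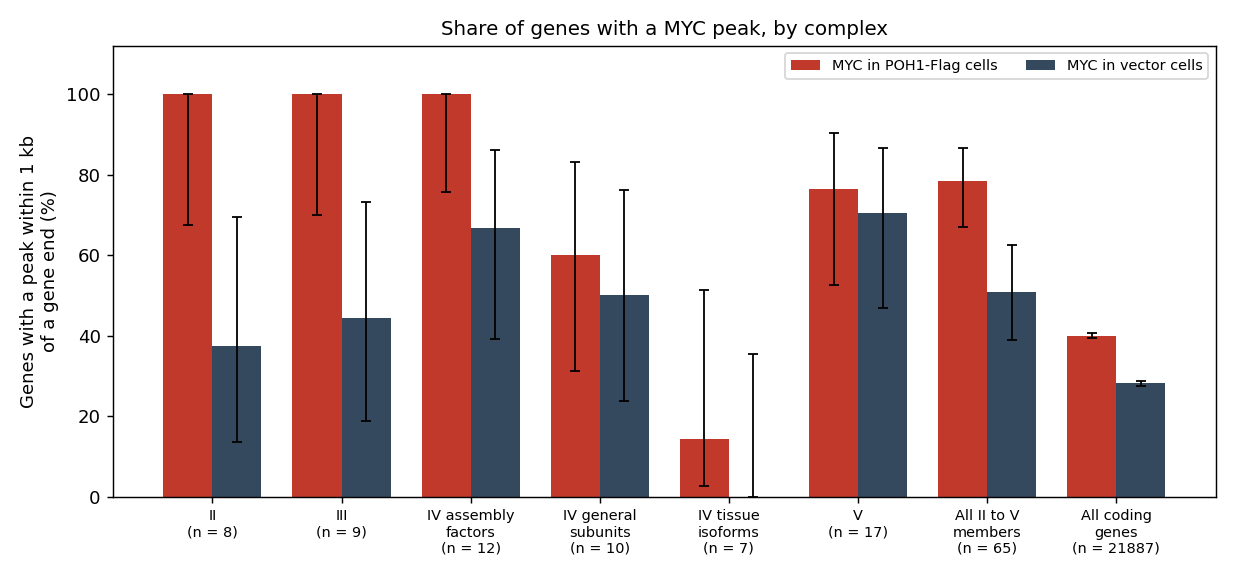
Share of genes with a MYC peak within 1 kb of a gene end (vertical axis, %) by complex and class, with POH1-Flag cells in red and vector cells in dark blue, and the share of all 21887 protein-coding genes at the right. Error bars are Wilson 95% intervals over genes, which are not replicates; complexes II and III were complete in POH1-Flag cells, whereas 1 of 7 tissue isoforms of complex IV had a peak.

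Complex II had a MYC peak at all 8 genes in POH1-Flag cells and at 3 in vector cells. Over all genes the shares were 40.0% and 28.2%. Among the subunits, Sdha, the flavoprotein that oxidises succinate (chromosome 13, 74322255 to 74350240), had 12 reads in POH1-Flag cells and 8 in vector cells, a ratio of 1.53 (95% interval 0.577 to 4.33). Sdhb, the iron-sulfur subunit, had 16 reads in POH1-Flag cells and no peak in vector cells. The membrane anchors Sdhc and Sdhd likewise had 15 and 21 reads in POH1-Flag cells only. Thus 3 of the 4 subunit genes lacked a vector peak, as did 15715 of all 21887 protein-coding genes. Of the assembly factors, Sdhaf2, which attaches the flavin to SDHA, had 27 reads in POH1-Flag cells and 18 in vector cells (1.53, 0.815 to 2.96), and Sdhaf1, needed for the iron-sulfur subunit, had 22 and 18 reads (1.25, 0.640 to 2.47). Sdhaf4, a chaperone of SDHA, had 11 reads in POH1-Flag cells only. Sdhaf3 had 5 reads there, the fewest that list allowed, with a −log10 q of 1.3. It was the only gene of complex II below a −log10 q of 5 in POH1-Flag cells.

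Complex III also had a MYC peak at each of its 9 genes in POH1-Flag cells, and at 4 in vector cells. Of all genes, 40.0% and 28.2% had one. Uqcrq, a small subunit (chromosome 11, 53427922 to 53430831), had the most reads of all 65 genes, with 55 in POH1-Flag cells and 26 in vector cells, a ratio of 2.16 (1.33 to 3.60). Its summit in POH1-Flag cells was 229 bp from Uqcrq and 286 bp from the neighbouring gene Gdf9, so the site may belong to either. The hinge protein gene Uqcrh had 28 and 18 reads (1.59, 0.850 to 3.06), at a summit 19 bp from Lrrc41 and 180 bp from Uqcrh. Uqcr11 had 17 and 16 reads (1.09, 0.516 to 2.30). At Cyc1, which encodes cytochrome c1, peaks of 17 reads in POH1-Flag cells and 10 in vector cells lay 42 and 457 bp from a gene end and did not overlap, so no ratio was formed. Uqcrc1 and Uqcrc2, the core proteins, had 17 and 15 reads in POH1-Flag cells and no vector peak, as did Uqcrfs1, the Rieske iron-sulfur protein, with 9. Uqcr10 (22 reads) and Uqcrb (11 reads) were likewise marked in POH1-Flag cells only, Uqcr10 at a summit closer to Zmat5 (123 bp) than to itself (189 bp). Cycs, the somatic cytochrome c (chromosome 6, 50562563 to 50566569), had 40 reads in POH1-Flag cells and 25 in vector cells (1.64, 0.969 to 2.82), and none of the searched letters stood in its promoter.

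**Figure D2:**
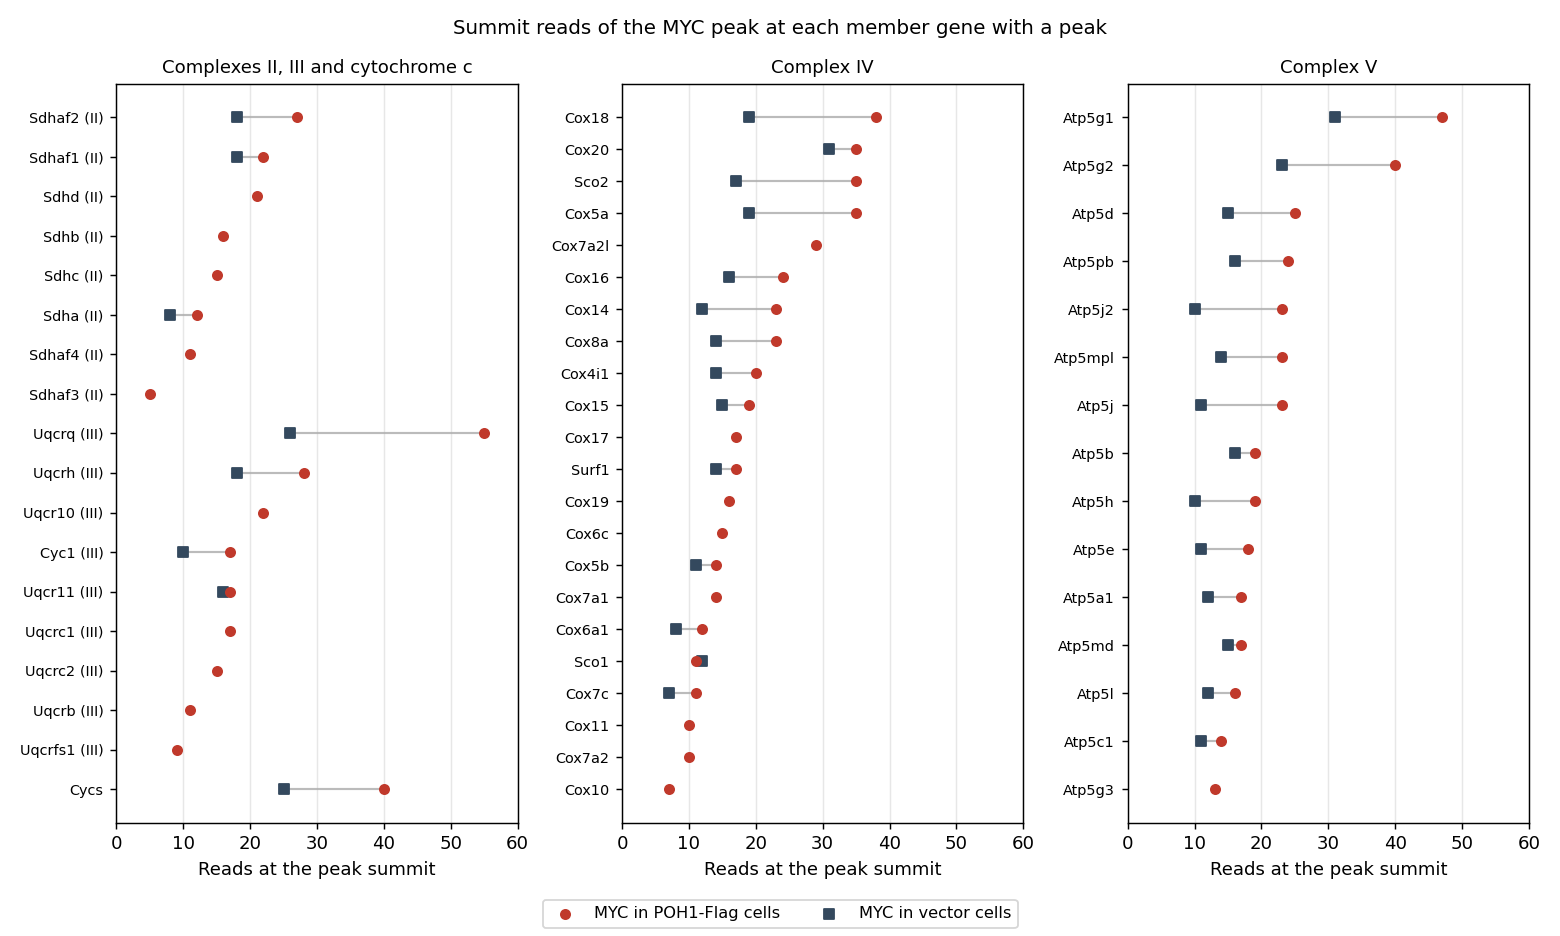
Reads at the MYC peak summit (horizontal axis) for each of the 55 genes with a peak within 1 kb of a gene end or an annotated start, in POH1-Flag cells (red circles) and vector cells (dark blue squares), joined where both had a peak. Genes without a square had no vector peak; Uqcrq (55 and 26 reads), Atp5g1 (47 and 31), Cycs (40 and 25) and Atp5g2 (40 and 23) stood highest, and Sco1 was the only gene with fewer reads in POH1-Flag cells.

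In complex IV the 12 assembly factors all had a MYC peak in POH1-Flag cells, and 8 did in vector cells. Of all genes, 40.0% and 28.2% did. Among the 12 factors, Cox18, Cox20 and Sco2 had the most reads in POH1-Flag cells. Cox18, which inserts the mitochondrial subunit COX2 in the membrane (chromosome 5, 90214724 to 90224595), had 38 reads in POH1-Flag cells and 19 in vector cells, a ratio of 2.05 (1.15 to 3.76). Cox20, a chaperone of COX2, had 35 and 31 reads (1.16, 0.692 to 1.94), and Sco2, which delivers copper (chromosome 15, 89371630 to 89373891), had 35 and 17 (2.11, 1.15 to 4.01). Cox16 had 24 and 16 reads (1.53, 0.782 to 3.09). The intervals at Cox18 and Sco2 lay above 1, and those at Cox16 and Cox20 included it.

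The remaining factors carried fewer reads. Cox14, which binds newly made COX1, had 23 reads in POH1-Flag cells and 12 in vector cells (1.96, 0.937 to 4.32), and Cox15, an enzyme of heme A synthesis, had 19 and 15 (1.3, 0.624 to 2.74). Surf1, an early assembly factor, had 17 and 14 reads (1.24, 0.576 to 2.72). At Sco1, a further copper factor, 11 reads in POH1-Flag cells stood against 12 in vector cells (0.938, 0.375 to 2.32). It was the only one of the 32 genes with a pair of peaks whose ratio was below 1, and its interval was wide. Copper factors Cox17 (17 reads), Cox19 (16 reads) and Cox11 (10 reads) and the heme enzyme gene Cox10 (7 reads) had peaks in POH1-Flag cells only.

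Of the 10 general subunit genes of complex IV, 6 had a gene-end MYC peak in POH1-Flag cells and 5 in vector cells. Cox8a had 23 and 14 reads (1.68, 0.829 to 3.53), and Cox4i1, the regulatory subunit common to most tissues, had 20 and 14 (1.46, 0.702 to 3.13). Cox5b (14 and 11 reads), Cox6a1 (12 and 8) and Cox7c (11 and 7) were weaker, with ratios of 1.3, 1.53 and 1.61 whose intervals all included 1. Cox6c had 15 reads in POH1-Flag cells only. Cox7a2l, which joins complexes III and IV into supercomplexes (chromosome 17, 83501917 to 83514333), had 29 reads in POH1-Flag cells and no vector peak. This was the most reads of the 18 genes marked in POH1-Flag cells only, with an authors' fold of 10.9 and a −log10 q of 21.5.

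Of the 7 tissue isoforms of complex IV, 1 had a gene-end MYC peak in POH1-Flag cells and 0 in vector cells. The Wilson intervals were 2.57 to 51.3% and 0 to 35.4%. Both included the shares of all genes, 40.0% and 28.2%, so 7 genes are too few to set these isoforms apart. Cox4i2 (lung), Cox6a2 and Cox8b (heart and muscle) and Cox6b2, Cox7b2 and Cox8c (testis) had no MYC peak near a gene end in either cell line. Cox7a1, a heart and muscle isoform, had 14 reads in POH1-Flag cells, 106 bp downstream of its start, and none in vector cells. Without the 7 tissue isoforms, 50 of 58 genes (86.2%) had a peak in POH1-Flag cells and 33 (56.9%) in vector cells. Of the general subunits, Cox4i1, Cox6a1 and Cox8a had peaks in both cell lines, while Cox6b1 and Cox7b had none in any library.

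Complex V had a MYC peak near a gene end at 13 of 17 genes in POH1-Flag cells and at 12 in vector cells. Over all genes the shares were 40.0% and 28.2%. The near equality of 13 and 12 depended on the peak limit. At a −log10 q of at least 5 the counts were 13 and 6, against 33.9% and 18.9% of all genes. At 10 they were 6 and 1, against 20.1% and 6.91% of all genes. With the POH1-Flag list cut to the length of the vector list they were 12 and 12, against 31.6% and 28.2% of all genes. At an authors' fold of at least 5 they were 12 and 9, against 30.9% and 19.7% of all genes. In the catalytic F1 part, the alpha subunit gene Atp5a1 had 17 reads in POH1-Flag cells and 12 in vector cells (1.45, 0.652 to 3.33), beta (Atp5b) had 19 and 16 (1.22, 0.592 to 2.53), gamma (Atp5c1) had 14 and 11 (1.3, 0.549 to 3.17) and epsilon (Atp5e) had 18 and 11 (1.67, 0.749 to 3.92). All 4 intervals included 1. The c ring, the rotor that protons turn, is made of an identical mature protein from separate genes, and 2 of them had the strongest peaks of the complex. Atp5g1 (chromosome 11, 96072793 to 96075694) had 47 and 31 reads (1.55, 0.965 to 2.53), and Atp5g2 (chromosome 15, 102662868 to 102671047) had 40 and 23 (1.78, 1.04 to 3.11).

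In the peripheral stalk, Atp5pb had 24 reads in POH1-Flag cells and 16 in vector cells (1.53, 0.782 to 3.09), at a summit 6 bp from the neighbouring gene Wdr77 and 241 bp from itself. Atp5h had 19 and 10 reads (1.94, 0.860 to 4.68). Atp5j counted as marked in POH1-Flag cells only because of the distance limit. It had 23 reads in POH1-Flag cells at 824 bp from a gene end and 11 in vector cells at 1018 bp, in peaks that overlap (ratio 2.14, with an interval between 1 and 4.86), and the POH1-Flag summit was 142 bp from Gabpa, which encodes an ETS factor known to activate respiratory genes. Of the small membrane subunits, Atp5j2 had 23 and 10 reads, the highest ratio of all members (2.35, 1.08 to 5.54), and Atp5mpl had 23 and 14 (1.68, 0.829 to 3.53). Atp5l had 16 and 12 reads (1.36, 0.606 to 3.16), and Atp5md had 17 and 15 (1.16, 0.545 to 2.49). Atp5k and Atp5o, the subunit that links the stalk to F1, had no peak near an end or start in any library.

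A further 4 genes without a gene-end peak had one at an annotated start that lies inside the span of the gene. Cox5a had 35 reads in POH1-Flag cells and 19 in vector cells (1.88, 1.05 to 3.49) at 32 and 6 bp from its start, more than 3 kb from either gene end. At Atp5d, the delta subunit of F1, overlapping peaks had 25 and 15 reads (1.71, 0.865 to 3.48). Cox7a2 had 10 reads 3 bp from its start and Atp5g3 had 13 reads 462 bp from it, both in POH1-Flag cells only. With starts added to gene ends, 55 of 65 genes had a MYC peak in POH1-Flag cells and 36 in vector cells, against 43.3% and 30.5% of all genes. All 3 c ring genes and all 5 F1 genes were then marked in POH1-Flag cells. The 10 genes left without a MYC peak were the 6 tissue isoforms named above with Cox6b1, Cox7b, Atp5k and Atp5o.

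In POH1-Flag cells 46 of the 51 gene-end summits were within 300 bp of a gene end (90.2%, against 79.5% of all genes with a peak), at a median of 124 bp. In vector cells 26 of 33 were (78.8%, against 77.8% of all), at a median of 155 bp. Relative to annotated starts, 42 of 44 summits lay within 300 bp in POH1-Flag cells and 26 of 30 in vector cells. The peaks were chosen within 1 kb of an end or start, which partly sets this nearness, and no share over all genes is given. Of the 44 summits in POH1-Flag cells, 23 were upstream and 21 downstream, and 15 lay on each side in vector cells. At 21 of the 51 genes (41.2%, against 29.5% of all) the summit also lay within 1 kb of another protein-coding gene, and at 7 of these, Atp5a1, Atp5j, Atp5pb, Cox15, Sdhaf2, Uqcr10 and Uqcrh, the other gene was closer.

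**Figure D3:**
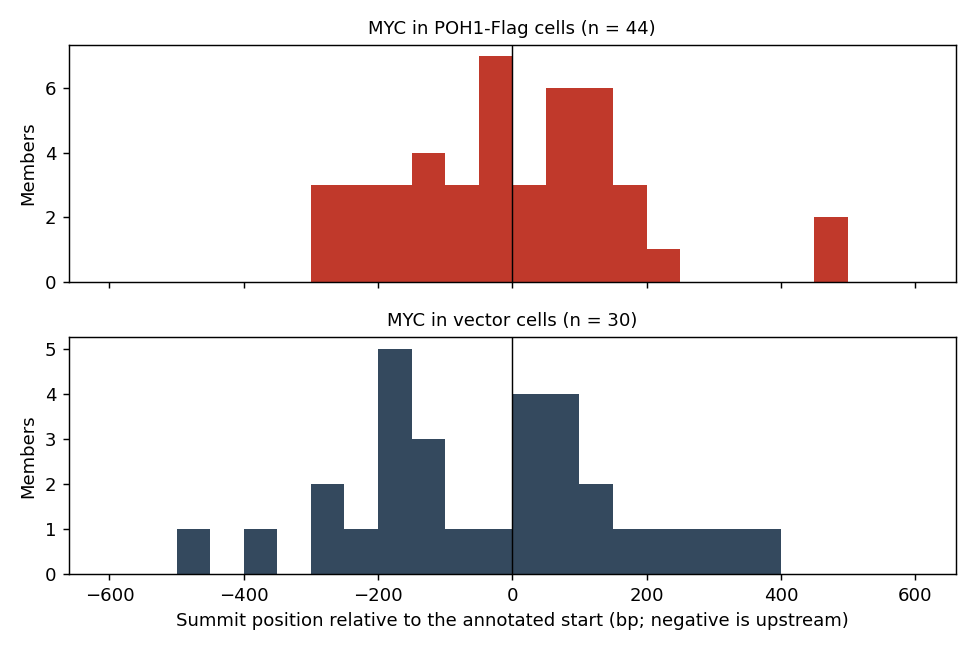
Position of the MYC summit relative to the nearest annotated start (horizontal axis, bp, negative values upstream) for the genes with a start in the promoter table and a peak, as number of genes per 50 bp, in POH1-Flag cells (above, 44 genes) and vector cells (below, 30 genes). Summits fell on both sides of the start, 23 upstream and 21 downstream in POH1-Flag cells.

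Promoters of members with a MYC peak in POH1-Flag cells had a median GC content of 60.2% and a median of 21.5 CpG dinucleotides in 300 bases (44 genes), against 52.3% and 10 in the 7 without a peak. Over all genes the medians were 62.7% and 24 with a peak and 51.0% and 5 without. Cox7a1, the tissue isoform with a peak, had 7 CpGs, and Cox8b had 2. Their part in the presence of peaks was not tested.

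At the 32 genes with overlapping gene-end peaks in both cell lines, the median log2 ratio of summit reads, POH1-Flag over vector cells and scaled to the genome-wide background, was 0.62. Over all 6000 genes with such a pair it was 0.72. The ratio was above 1 at 31 of the 32 members (96.9%) and at 98.3% of all genes. Its interval lay above 1 at 5 members (15.6%), Uqcrq, Cox18, Sco2, Atp5g2 and Atp5j2, against 25.8% of all genes, and below 1 at 0. The members' shares were at or below those of all genes. By complex the medians were 0.62 for II (3 genes), 0.67 for III (3 genes), 0.62 for IV (13 genes) and 0.63 for V (12 genes). With each pileup divided by the local background of its own peak instead, the median was 0.02 for the members and 0.06 for all genes. The median local background at the members' peaks was 2.61 reads in POH1-Flag cells and 1.63 in vector cells. Over all genes it was 2.85 and 1.82. The local background was thus also higher in POH1-Flag cells, and its part in the ratios was not tested. The order of the sites was alike in both libraries, with a Spearman correlation of 0.82 over the 32 genes and 0.81 over all pairs, as a description of sites that share sequence and gene context.

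**Figure D4:**
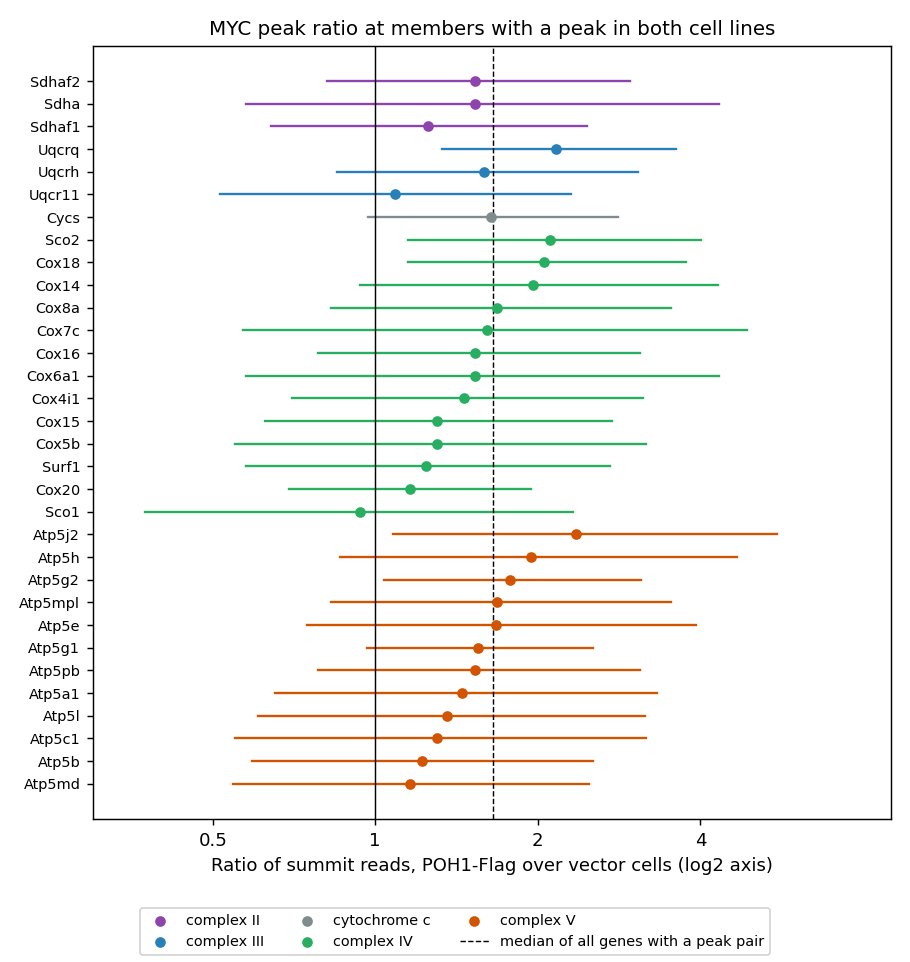
Ratio of MYC summit reads, POH1-Flag over vector cells (horizontal axis, log2 scale), at the 32 genes with overlapping peaks in both, coloured by complex, with exact 95% counting intervals as lines. The solid vertical line marks 1 and the dashed line the median of all 6000 genes with a pair (1.65); 31 points lie right of 1, and 5 intervals exclude it.

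The 18 genes marked in POH1-Flag cells only had 5 to 29 reads there, with a median of 15, close to the median of 14 over all 2706 such genes. The 33 genes marked in both had 11 to 55 reads in POH1-Flag cells, with a median of 20, against 26 over all 6049 such genes. Complexes II and III supplied 5 of the 18 each, complex IV 7 and complex V 1. With a −log10 q of at least 5 in both lists, 25 genes (38.5%, against 15.5% of all genes) were marked in POH1-Flag cells only. Of the 25, complexes II and III held 5 each, complex IV 8 and complex V 7. When the POH1-Flag list was cut to the 12175 strongest peaks, the length of the vector list, 12 of the 18 were still found in POH1-Flag cells only, which is 18.5% of the 65 genes, against 6.23% of all genes. These were Atp5j, Cox17, Cox19, Cox6c, Cox7a2l, Sdhb, Sdhc, Sdhd, Uqcr10, Uqcrb, Uqcrc1 and Uqcrc2. Atp5l, Cox6a1, Sco1, Surf1 and Uqcr11 then had a peak in vector cells only, which is 7.69% of the 65 genes, against 2.85% of all genes.

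No Flag peak lay near an end or an annotated start of any of the 65 genes. Only 43 of all genes (0.196%) had a gene-end Flag peak, so the count of 0 lies near the background. The nearest Flag summit was 6324 bp from Cox8c with 13 reads, and no other member had one within 10 kb. No MYC peak of a member in POH1-Flag cells overlapped a Flag peak.

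Of 27 further assembly factors and helpers of complexes II to V, 24 (88.9%) had a gene-end MYC peak in POH1-Flag cells and 18 (66.7%) in vector cells, beside 40.0% and 28.2% of all genes. Coa5 had 31 and 13 reads (2.44, 1.24 to 5.08), Coa7 had 41 and 29 (1.45, 0.877 to 2.41), and Coa3 had 32 and 28 (1.17, 0.682 to 2.02). The ATP synthase factor Atpaf1 had 14 reads in POH1-Flag cells only, and Atpaf2 had no gene-end peak. A list for complex I was taken by name alone, as the 49 genes with symbols starting Nduf, the Ndufaf assembly factors included. Of these, 42 (85.7%) had a MYC peak in POH1-Flag cells and 25 (51.0%) in vector cells. The median log2 ratio was 0.86 over 25 pairs. Genes of the mitochondrial ribosome gave 68 and 44 of 78 with a median of 0.86, and those of the cytosolic ribosome 74 and 60 of 91 with 0.71. No test of the difference between these lists and the 65 genes was made.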

How the data were processed

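CUT&Tag libraries were made with a commercial kit, per the labels' protocols. The submitters' processing notes list the build GRCm38/mm10 and, as tools, MACS2 2.2.7.1, BWA 0.7.17-r1188, FastQC 0.11.9 and Trim Galore 0.6.6, without roles or parameters. The sources used here do not give a control library, duplicate handling or a blacklist. Each library has its own deposited peak list without a header, in the narrowPeak layout, so peaks were called per library.

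The deposited fold enrichment is a linear ratio of summit over background, the deposited −log10 p and −log10 q belong to the summit, and the score that the authors deposited holds that −log10 q multiplied by 10, without decimals. The authors' q was not used in ratios between lists. The same limits on fold and q were applied to each list, and the counts they left were compared between lists. The median −log10 q of the members' peaks was also given for both MYC lists. Deposited starts, ends and summit offsets are other values, in bp.

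The whole pileup k and background λ of each summit satisfy 2 equations, fold = (k + 1)/(λ + 1) and a p equal to the Poisson probability of more than k reads, and were solved for. All peaks gave a whole k within 0.01 of a read. The lowest λ of each list (0.946 for Flag, 0.826 for MYC in POH1-Flag cells, 0.845 for MYC in vector cells) served as its genome-wide background. Divided by the smallest peak width it gave the relative depth, since the sources used here give no total reads. Ratios between the MYC lists are scaled by the lowest λ, 0.845 over 0.826, and have exact conditional Poisson 95% intervals. They are not scaled by the relative depth of 1.06, which would lower them. That scaling was not tried, and lower limits close to 1, such as the 1.04 of Atp5g2, depend on this choice. Kept PCR duplicates would make intervals and floors too narrow.

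Pairs were mutually best peaks sharing at least 1 bp, with both summits within 1 kb of a gene end, and the pair with the most reads in sum stood for a gene. The strongest peak stood for a gene without a pair. Genes and starts came from RefSeq tables of GRCm38.p6. Python 3.11.15, numpy 2.4.6, pandas 2.3.3, scipy 1.17.1 and matplotlib 3.10.9 were used, and the steps were tested on simulated data. No p-value was computed. The members, lists and motifs were chosen with earlier results of these data known. Values are given for every gene with a peak, which goes beyond the planned rule of naming the strongest genes of each complex, those with an interval apart from 1 and those in 1 cell line only. Alternatives were stricter peak limits, other distances, annotated starts, equal list lengths and other scalings.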

Additional observations from a re-analysis of the deposited data

How the results depend on the processing

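No paired analysis was possible because each group has 1 library and no result comes from a test. Counts of genes with a gene-end MYC peak in POH1-Flag cells ran from 40 to 55 under the alternatives other than a −log10 q of at least 10, which left 20 of 65. In vector cells they ran from 22 to 36, except that a −log10 q of at least 5 left 20 and one of at least 10 left 5. Genes marked in POH1-Flag cells only numbered 12 to 25 under all alternatives. The share of all genes was 6.23% in the setting that gave 12 and 15.5% in the setting that gave 25. Genes marked in vector cells only numbered 0, except 1 (Uqcr11) at an authors' fold of at least 5 and 5 with equal list lengths. Those 5 follow from the shortened POH1-Flag list, whose weakest peak had a −log10 q of 5.77. The count of Flag peaks was 0 throughout. The median log2 ratio of 0.62 stayed between 0.58 and 0.63 under the other alternatives, but was 0.02 with the local background of each peak, and the cause was not tested. Annotated starts together with gene ends, and leaving out gained genes whose peak overlaps a vector peak (17 genes), were alternatives added after seeing the data. With 5 to 55 reads at a summit, counting error limits most single ratios.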

Other observations

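Nuclear regulators of mitochondrial genes carried MYC peaks near a gene end at 11 of 14 genes in POH1-Flag cells and at 10 in vector cells, beside 40.0% and 28.2% of all genes. Esrra, a nuclear receptor that activates respiratory genes, had 62 reads in POH1-Flag cells and 36 in vector cells (ratio 1.76, 95% interval 1.15 to 2.74). Nrf1 had 16 and 15 reads (1.09, 0.505 to 2.37), and Tfam, a factor of mitochondrial DNA transcription, had 16 and 9 (1.82, 0.757 to 4.67). The coactivator genes Ppargc1a and Ppargc1b had no gene-end peak in any library. Of 17 genes of the citric acid cycle and its entry, 15 had a MYC peak in POH1-Flag cells and 14 in vector cells, with a median log2 ratio of 0.83 over 13 pairs.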
